A study of Homo sapiens with 3 samples.

Results

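Aminoacyl-tRNA synthetase genes were followed after siRNAs against TMPO-AS1, a long non-coding RNA transcribed next to TMPO, had been given to MDA-MB-231, a cell line of triple-negative human breast cancer. Of 38 listed genes, 33 had a probe set annotated with that gene symbol alone, out of 33615 genes measured in all. They comprise 17 cytosolic synthetases, 15 mitochondrial synthetases and AIMP1, a scaffold protein of the multisynthetase complex. MARS1, QARS1 and TARS2 lay on probe sets annotated with a second symbol as well, and AIMP2 and EEF1E1 had no probe set of their own here. The main comparisons of signal therefore leave out these 5 genes. Values of the shared probe sets are given separately at the end. The genes were chosen by function, with earlier results of these data known. Where a gene had several probe sets, the brightest stood for it.

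The cells received control siRNA (siControl, 1 array) or 1 of 2 siRNAs against TMPO-AS1 (siTMPO-AS1 #1 and siTMPO-AS1 #2, 1 array each) for 48 hours. Total RNA was hybridised to Affymetrix expression arrays. All 3 groups were transfected, no untransfected cells were arrayed, and no siRNA had a replicate array. The labels do not say whether the arrays came from separate cultures, so the spread between them may be technical, and it includes whatever differs between the siRNAs.

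Synthetases join amino acids to their matching tRNAs, in most cases with a separate enzyme for each amino acid, and the charged tRNAs are what the ribosome reads. The human cytosol and the mitochondrion use mostly separate enzymes, all encoded in the nucleus, with a 1 after the symbol for the cytosolic and a 2 for the mitochondrial form. GARS1 and KARS1 each supply both compartments. Several cytosolic enzymes are held in a multisynthetase complex by scaffold proteins. When amino acids run short, uncharged tRNA activates the kinase GCN2 and the transcription factor ATF4 accumulates, which induces many cytosolic synthetase genes together with genes of amino acid supply.

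ATF4 binds with C/EBP partners to a composite element, and the letters TGATGNAA were searched on both strands of RefSeq promoters (GRCh38.p14, 250 bases before to 50 after an annotated start). Of the 38 listed genes, 33 had a promoter in that table. The element was found in 7 of 16 cytosolic synthetase genes (43.8%) and in 1 of 14 mitochondrial ones (7.14%), against 4.46% of 27305 genes with a promoter. The stretches that hold it are shown because the members that carry it are compared between the siRNAs below. Each is written 5′ to 3′ on the strand of its gene, with the match in capitals.
AARS1, chr16:70289661-70289718, minus strand: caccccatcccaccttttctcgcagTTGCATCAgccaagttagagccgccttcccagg
CARS1, chr11:3057393-3057450, minus strand: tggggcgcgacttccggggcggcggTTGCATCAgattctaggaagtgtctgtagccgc
GARS1, chr7:30594820-30594877, plus strand: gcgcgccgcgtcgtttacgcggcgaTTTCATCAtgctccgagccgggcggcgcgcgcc
IARS1, chr9:92293678-92293735, minus strand: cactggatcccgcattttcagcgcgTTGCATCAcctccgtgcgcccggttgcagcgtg
MARS1, chr12:57488039-57488096, plus strand: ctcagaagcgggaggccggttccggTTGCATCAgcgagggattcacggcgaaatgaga
NARS1, chr18:57621790-57621847, minus strand: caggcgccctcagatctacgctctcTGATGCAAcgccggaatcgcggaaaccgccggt
TARS1, chr5:33440942-33440999, plus strand: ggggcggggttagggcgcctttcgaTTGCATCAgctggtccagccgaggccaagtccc
YARS2, chr12:32756062-32756119, minus strand: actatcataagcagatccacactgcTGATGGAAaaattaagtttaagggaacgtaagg
In AARS1, CARS1, GARS1, IARS1, MARS1 and TARS1 the match lies in the reverse orientation (TTNCATCA). A match is a string of letters and was not tested as a binding site. The letters to search were chosen with earlier results of these data known. For genes with several annotated starts, any 1 window with a match counted.

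The deposited values are log2 signals after RMA, and a log2 ratio is an siRNA array's signal less the control array's. TMPO-AS1 itself had log2 signals of 4.83 with siControl, 4.37 with siTMPO-AS1 #1 and 4.28 with siTMPO-AS1 #2, and TMPO had 14.28, 13.39 and 13.76. The log2 ratios of TMPO-AS1, -0.46 and -0.55, were within 1.5-fold of control. These arrays alone therefore do not establish its knockdown. Its signals lay close to the filter on dim genes at 4.42. Genes were compared when their mean over the arrays reached that filter, the median of all genes, and 16808 genes did. Over these, log2 ratios had a median of 0.025 and an SD of 0.80 with siTMPO-AS1 #1 and a median of 0.093 and an SD of 0.59 with siTMPO-AS1 #2. The cell line's markers VIM, CD44, CAV1, MSN, EGFR and AXL all passed the filter, while ESR1 and PGR, the hormone receptor genes that triple-negative cells lack, did not. The other luminal markers GATA3, KRT8, EPCAM and ERBB2 passed. ERBB2 had signals of 7.72, 8.97 and 7.54 (siControl, siTMPO-AS1 #1 and siTMPO-AS1 #2), GATA3 had 5.25, 6.66 and 5.61, EPCAM had 10.92, 11.26 and 13.22, and KRT8 had 14.82, 15.02 and 15.80. Of 9 fibroblast, immune and endothelial markers 5 passed, among them COL1A1 (7.88, 8.07 and 9.10 in the order above) and CD68 (11.14, 12.32 and 10.79). LUM also passed (5.53, 6.66 and 6.15) and was past 1.5-fold above control with both siRNAs. PTPRC, CD3E, PECAM1 and DCN did not pass. PTPRC (4.54, 4.06 and 4.64) and DCN (4.43, 3.96 and 4.79) lay close to the filter, above it with siControl and siTMPO-AS1 #2. The part of these markers in the results was not tested.

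Of the 33 synthetase and scaffold genes, 31 passed the filter. AARS2 (3.37, 3.52 and 3.41 with siControl, siTMPO-AS1 #1 and siTMPO-AS1 #2) and EARS2 (3.64, 3.52 and 3.42) did not, and they are left out of all counts below. The plot of signals by array gives every gene's 3 values. Signals of different genes come from different probes and are not compared with each other.

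**Figure D1:**
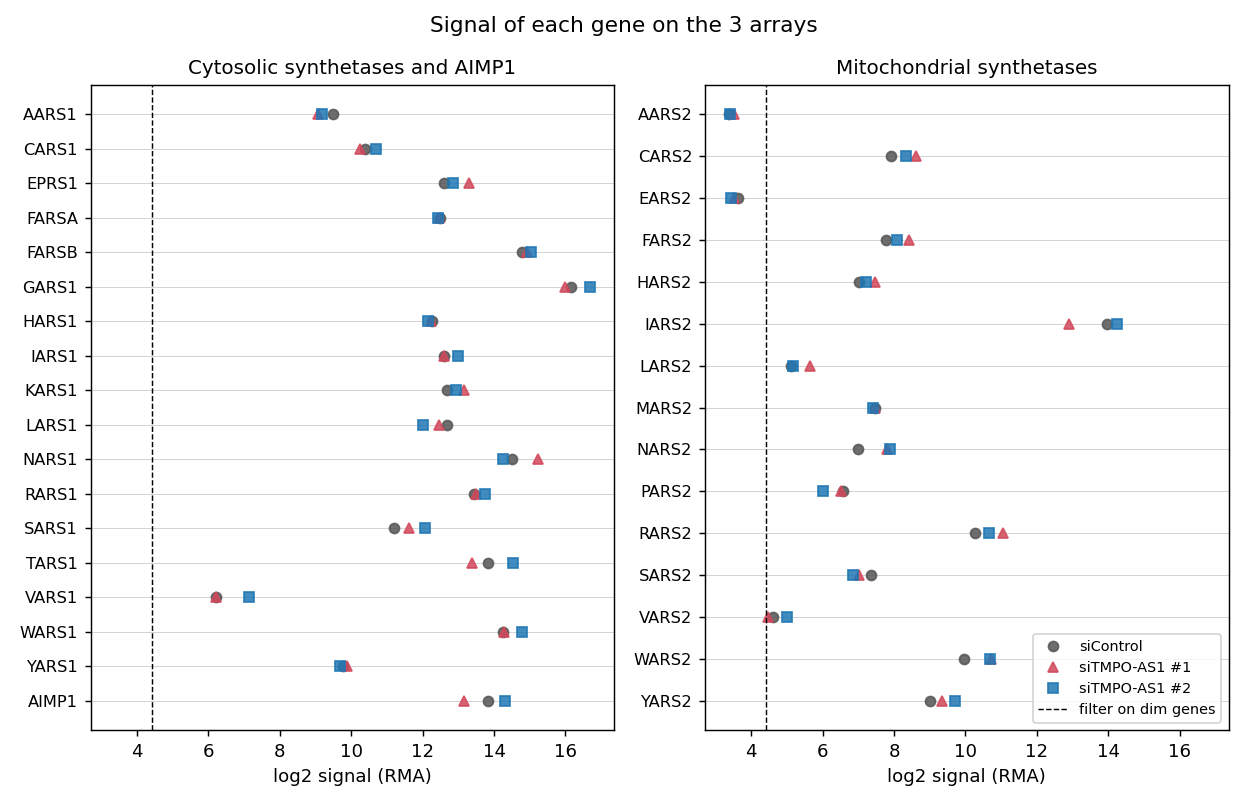
Log2 signal (x axis) of the 33 synthetase and scaffold genes (y axis) on the siControl array (grey circles), the siTMPO-AS1 #1 array (red triangles) and the siTMPO-AS1 #2 array (blue squares), 1 array each, with the filter on dim genes at 4.42 as a dashed line. Only AARS2 and EARS2 lie below the filter, and the 3 arrays lie within 1 log2 unit for all genes but AIMP1, IARS2 and TARS1.

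Most synthetase genes stood within 1.5-fold of control with either siRNA. At least 1.5-fold above control with both siRNAs were 2 of 31 genes (6.45%), against 5.42% of all genes tested, and 0 of 31 were at least 1.5-fold below control with both, against 4.07%. Both shares are near those of all genes. None of the 31 passed 1.5-fold in opposite directions, against 3.3% of all genes. With siTMPO-AS1 #1 alone 7 of 31 were at least 1.5-fold above control and 2 at least 1.5-fold below, against 16.6% and 18.8% of all genes. With siTMPO-AS1 #2 alone 6 were above and 1 was below by that size, against 16.1% and 10.4%. Both ratios share the single control array.

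limma, fitted over all 16808 genes with both siTMPO-AS1 arrays against the control array, called 0 genes at an adjusted p of 0.05, or 0% of all genes. At an unadjusted p under 0.05 there were 261 genes (1.55%), of which 0 were among the 31. Every one of the 31 had an adjusted p of 1.00 in limma with Benjamini-Hochberg adjustment, and standard errors ran from 0.44 to 0.71 on the log2 scale. The fit had 1 residual degree of freedom and its spread came from the difference between the siRNAs, so the count of 0 does not show that the genes did not differ. The values that follow are therefore descriptions of these 3 arrays.

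**Figure D2:**
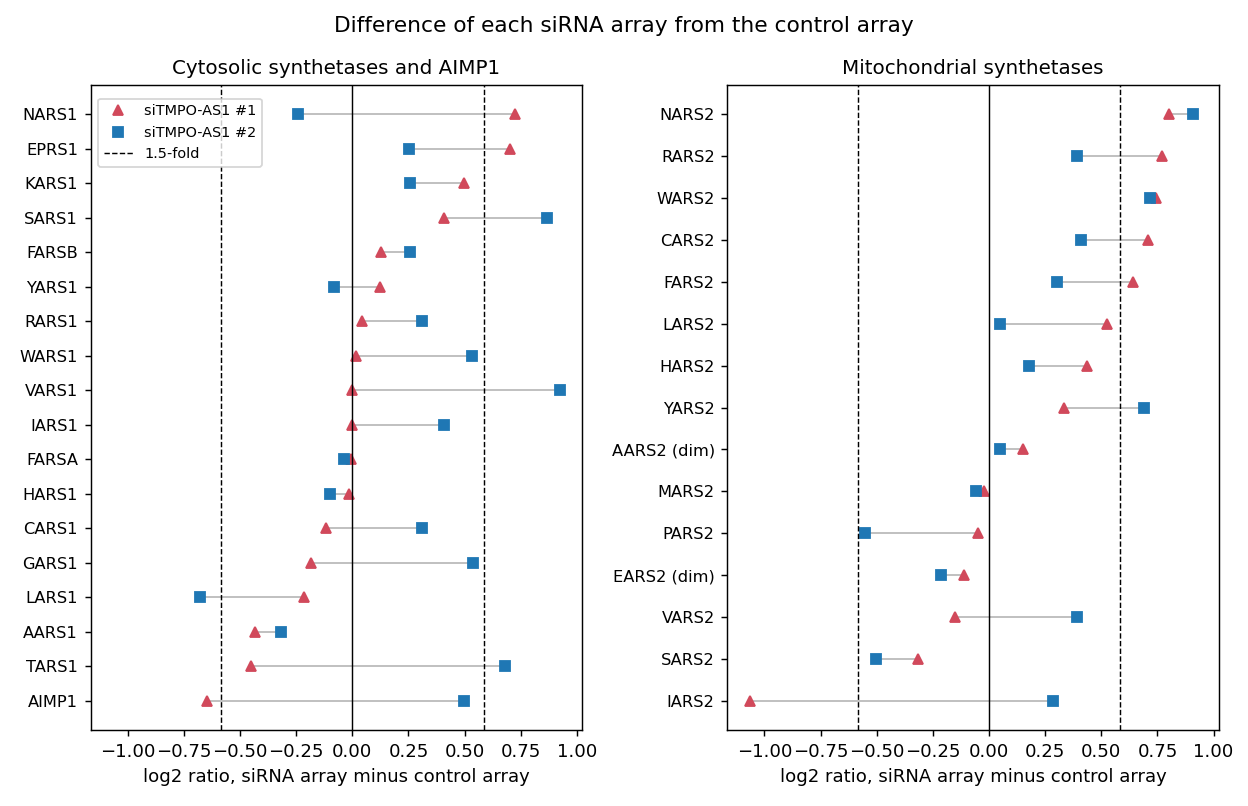
Log2 ratio to the control array (x axis) of each synthetase and scaffold gene (y axis, ordered by the siTMPO-AS1 #1 value) with siTMPO-AS1 #1 (red triangles) and siTMPO-AS1 #2 (blue squares), 1 array each, with dashed lines at 1.5-fold and genes under the signal filter marked dim. NARS2 and WARS2 lie beyond the right dashed line with both siRNAs.

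The genes past 1.5-fold with both siRNAs were the mitochondrial NARS2 and WARS2. NARS2, which charges mitochondrial tRNA with asparagine, had log2 signals of 6.99 with siControl, 7.79 with siTMPO-AS1 #1 and 7.90 with siTMPO-AS1 #2. Both siRNA arrays stood above the control array, 1.74-fold and 1.87-fold, and they differed little from each other (mean log2 ratio 0.85 ± 0.075, SD, n = 2 siRNAs). WARS2, the mitochondrial tryptophan enzyme, had 9.96, 10.70 and 10.68 in the same order. Its siRNA arrays stood 1.67-fold and 1.65-fold above control (mean log2 ratio 0.73 ± 0.017, SD, n = 2 siRNAs). An SD of this kind compares the siRNA arrays only. Both ratios use the same control array, whose error the SD leaves out, so it is not the precision of the difference from control. Under a stricter filter on dim genes (log2 signal of 7.79) NARS2 drops out and 1 gene is left. In limma the standard errors of NARS2 and WARS2 were 0.44 for each, set mainly by the prior shared over all genes, and their unadjusted p-values were 0.118 and 0.164 (adjusted p = 1.00 for both).

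Mitochondrial synthetases had median log2 ratios of 0.44 (siTMPO-AS1 #1) and 0.30 (siTMPO-AS1 #2) over 13 genes, beside 0.025 and 0.093 for all genes tested. The median of their mean ratios, 0.31, was 0.54 under a stricter filter on dim genes. That filter removes NARS2, but also SARS2, PARS2 and MARS2, whose mean ratios were -0.41, -0.30 and -0.040. HARS2, LARS2 and VARS2 (0.31, 0.29 and 0.12) drop out as well. The higher median thus comes from a different set of genes and does not show a larger difference in the same ones. With siTMPO-AS1 #1, 5 of the 13 were at least 1.5-fold above control (38.5%, against 16.6% of all genes) and 1 at least 1.5-fold below (7.69%, against 18.8%). With siTMPO-AS1 #2 the counts were 3 (23.1%, against 16.1%) and 0 (against 10.4%). Above control by any amount with both siRNAs were 8 of 13 (61.5%), and 3 were below with both, against 35.4% and 25.4% of all genes. The 2 genes under the filter went different ways, AARS2 with ratios of 0.15 and 0.048 and EARS2 with -0.11 and -0.21.

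Besides NARS2 and WARS2, the mitochondrial genes above control with both siRNAs were CARS2, FARS2, HARS2, LARS2, RARS2 and YARS2. RARS2, the arginine enzyme, had signals of 10.27, 11.04 and 10.66 (siControl, siTMPO-AS1 #1 and siTMPO-AS1 #2), and CARS2, the cysteine enzyme, had 7.92, 8.62 and 8.33. FARS2, the phenylalanine enzyme, had 7.77, 8.41 and 8.07. These 3 genes were past 1.5-fold with siTMPO-AS1 #1, with log2 ratios of 0.77, 0.71 and 0.64, and not with siTMPO-AS1 #2, with 0.39, 0.41 and 0.30. YARS2, the tyrosine enzyme and the 1 mitochondrial gene with the ATF4-type element, showed the reverse order, with signals of 9.01, 9.35 and 9.70 and log2 ratios of 0.34 and 0.69. HARS2 (0.44 and 0.18) and LARS2 (0.52 and 0.051) stayed within 1.5-fold with both.

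The remaining mitochondrial genes lay at or below control, or changed sides. IARS2, the isoleucine enzyme, had log2 signals of 13.95 with siControl, 12.89 with siTMPO-AS1 #1 and 14.24 with siTMPO-AS1 #2. It stood 2.09-fold below control with siTMPO-AS1 #1, the furthest of the 31 genes from control on either siRNA array, and 1.22-fold above with siTMPO-AS1 #2. SARS2, the serine enzyme, had 7.34, 7.03 and 6.84, below control on both siRNA arrays by less than 1.5-fold. PARS2, the proline enzyme, had log2 ratios of -0.051 and -0.55, MARS2, the methionine enzyme, had -0.023 and -0.057, and VARS2, the valine enzyme, had -0.15 and 0.39.

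Cytosolic synthetases had median log2 ratios of -0.00086 (siTMPO-AS1 #1) and 0.26 (siTMPO-AS1 #2) over 17 genes. With siTMPO-AS1 #1, 2 of the 17 were at least 1.5-fold above control (11.8%, against 16.6% of all genes) and 0 at least 1.5-fold below (against 18.8%). With siTMPO-AS1 #2 the counts were 3 (17.6%, against 16.1%) and 1 (5.88%, against 10.4%), so the counts above control are near those of all genes. Past 1.5-fold with both siRNAs there were 0 above and 0 below control, against 5.42% and 4.07% of all genes, and so near those shares. Above control with both by any amount were 6 of 17 (35.3%), and 4 were below with both (23.5%), which is near the 35.4% and 25.4% of all genes.

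With siTMPO-AS1 #1 the cytosolic genes past 1.5-fold were EPRS1 and NARS1. EPRS1, the fused enzyme that charges both glutamate and proline tRNAs within the complex, had signals of 12.61, 13.31 and 12.86. It stood above control with both siRNAs, 1.63-fold and 1.19-fold. NARS1, the asparagine enzyme, had 14.50, 15.22 and 14.25, and so stood 1.65-fold above control with siTMPO-AS1 #1 and 1.18-fold below it with siTMPO-AS1 #2.

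With siTMPO-AS1 #2 the cytosolic genes above control by 1.5-fold were VARS1, SARS1 and TARS1. VARS1, the valine enzyme, had signals of 6.22, 6.22 and 7.15. The siControl and siTMPO-AS1 #1 arrays did not separate, and siTMPO-AS1 #2 stood 1.90-fold above control. SARS1, the serine enzyme, had 11.20, 11.61 and 12.07, above control 1.33-fold and 1.82-fold, and its mean log2 ratio of 0.64 ± 0.33 (SD, n = 2 siRNAs) was the highest of the cytosolic genes. TARS1, the threonine enzyme, had 13.84, 13.39 and 14.52, on either side of control with the siRNAs. LARS1, the leucine enzyme and a sensor of leucine in mTOR signalling, was the 1 gene at least 1.5-fold below control with siTMPO-AS1 #2, with 12.68, 12.46 and 11.998.

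The other cytosolic genes stayed within 1.5-fold on both siRNA arrays. AARS1, the alanine enzyme, had signals of 9.50, 9.07 and 9.19, below control with both. KARS1, the lysine enzyme, had 12.67, 13.17 and 12.93, above control with both. FARSA and FARSB, the subunits of the phenylalanine enzyme, had log2 ratios of -0.0065 and -0.037 for FARSA and 0.13 and 0.26 for FARSB. WARS1, the tryptophan enzyme, which interferon gamma also induces, had 0.014 and 0.53, IARS1 (isoleucine) had -0.0022 and 0.41, RARS1 (arginine) had 0.043 and 0.31, CARS1 (cysteine) had -0.12 and 0.31, and HARS1 (histidine) had -0.013 and -0.10. YARS1 (tyrosine) had 0.12 and -0.082 on its brightest probe set, and its other, dimmer probe set had -0.37 and 0.10. GARS1 (glycine) had signals of 16.16, 15.98 and 16.70, near or above 16, the log2 limit of a 16-bit scan, so a further transformation of the deposited signal is possible and its ratios of -0.19 and 0.54 are those of the deposited scale.

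Genes of the multisynthetase complex went different ways. Its 5 measured enzymes, EPRS1, IARS1, KARS1, LARS1 and RARS1, had median log2 ratios of 0.043 (siTMPO-AS1 #1) and 0.26 (siTMPO-AS1 #2), beside -0.0037 and 0.28 for the 12 cytosolic enzymes outside it. Among these 5 enzymes EPRS1 and LARS1 were past 1.5-fold, EPRS1 above with siTMPO-AS1 #1 and LARS1 below with siTMPO-AS1 #2. AIMP1, the scaffold protein that binds tRNA in the complex, had signals of 13.82, 13.17 and 14.32, 1.57-fold below control with siTMPO-AS1 #1 and 1.41-fold above it with siTMPO-AS1 #2.

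Enzymes for the same amino acid were set side by side where both genes passed the filter, which gave 13 pairs over 12 amino acids, with FARS2 set against FARSA and against FARSB and EPRS1 against PARS2 for proline. With siTMPO-AS1 #1 the mitochondrial gene had the higher log2 ratio in 9 of 13 pairs (median difference 0.45), and with siTMPO-AS1 #2 in 9 of 13 (median difference 0.099). In the same order, the difference was 0.74 and 0.73 for leucine, 0.73 and 0.18 for tryptophan, and 0.074 and 1.15 for asparagine. The cytosolic gene had the higher ratio for serine (differences of -0.72 and -1.37), proline (-0.75 and -0.80), isoleucine (-1.06 and -0.12) and valine (-0.15 and -0.53). Both comparisons use the same control array, and the pairs are not replicates of a condition.

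**Figure D3:**
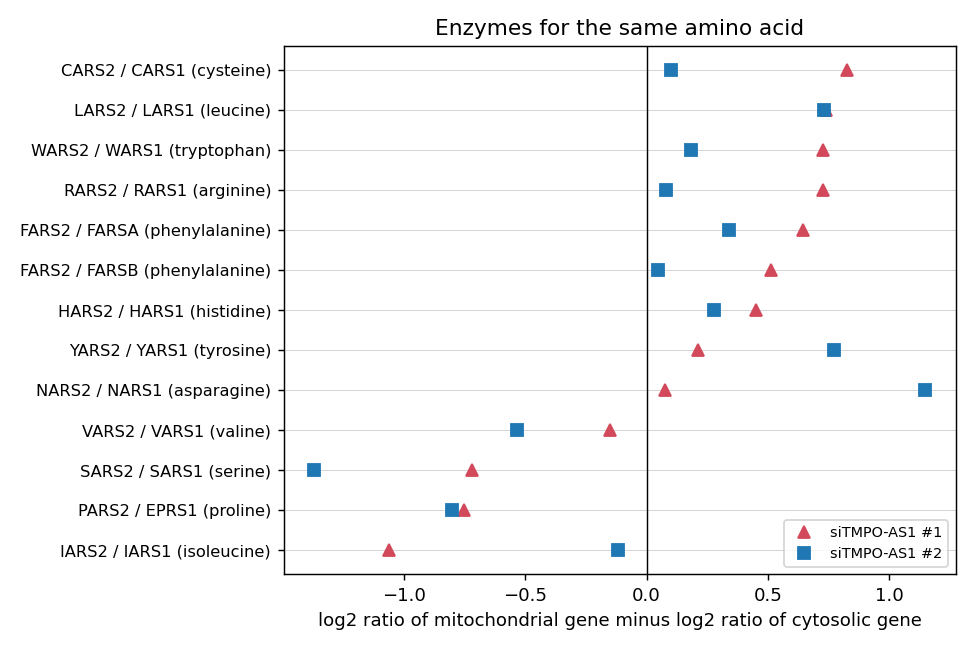
Log2 ratio to control of the mitochondrial gene minus that of the cytosolic gene for the same amino acid (x axis) in 13 pairs (y axis), with siTMPO-AS1 #1 (red triangles) and siTMPO-AS1 #2 (blue squares), 1 array each. Points right of 0, in 9 of 13 pairs with each siRNA, have the mitochondrial gene higher relative to control, and the leucine pair shows nearly the same difference with both siRNAs.

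The histidine pair lies head to head on chromosome 5, and the promoter windows of HARS1 and HARS2 overlap by 184 bases. The shared stretch, plus strand, is shown because its middle part lies before both genes. Each end covers the first 50 bases after the start of 1 of them. CCGGAAGT, the core of an ETS factor site, is in capitals on either strand.
HARS1 and HARS2, chr5:140691321-140691504: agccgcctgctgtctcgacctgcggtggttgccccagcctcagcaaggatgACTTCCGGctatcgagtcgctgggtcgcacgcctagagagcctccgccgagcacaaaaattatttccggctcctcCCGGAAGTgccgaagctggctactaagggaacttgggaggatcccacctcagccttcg
These letters were found in 8 of 33 listed genes with a promoter (24.2%), against 4.95% of all genes with one. HARS1 and HARS2 are both among the 8 through this shared stretch, so the same sites count for 2 genes. HARS1 had signals of 12.25, 12.24 and 12.15 and HARS2 had 7.03, 7.47 and 7.20. HARS1 thus lay 1.01-fold and 1.07-fold below control, while HARS2 stood 1.35-fold and 1.13-fold above it, none of them past 1.5-fold. The letters CGCATGCG, the strict core of sites for NRF1, a regulator of nuclear genes for mitochondrial proteins, were found in 1 of 33 listed genes (3.03%), against 2.46% of all genes. A longer NRF1 form with an open middle base was found in 7 of 33 (21.2%), against 6.98% of all genes, so this count depended on the form searched.

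The siRNA arrays were also set against each other directly, which leaves out the control array. At least 1.5-fold lower with siTMPO-AS1 #1 than with siTMPO-AS1 #2 were 5 of 31 genes, IARS2, AIMP1, TARS1, VARS1 and GARS1, against 22.7% of all genes. NARS1 was the 1 gene at least 1.5-fold higher with siTMPO-AS1 #1, against 14.9% of all genes. The differences were -1.35 for IARS2, -1.15 for AIMP1, -1.13 for TARS1, -0.92 for VARS1, -0.72 for GARS1 and 0.97 for NARS1 on the log2 scale. Cytosolic genes had a median difference of -0.13 and mitochondrial genes one of 0.19, beside -0.073 for all genes tested. Below siTMPO-AS1 #2 on the siTMPO-AS1 #1 array were 10 of 17 cytosolic (58.8%) and 4 of 13 mitochondrial genes (30.8%), against 54.7% of all genes. With 1 array per siRNA these differences have no replicate check.

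Cytosolic synthetases often listed as ATF4 targets were 12 of the 17, all but FARSA, FARSB, HARS1, KARS1 and RARS1. Against control their median log2 ratios were -0.0015 (siTMPO-AS1 #1) and 0.36 (siTMPO-AS1 #2), beside 0.043 and 0.26 for the other 5. At least 1.5-fold above control with siTMPO-AS1 #1 were 2 of the 12 (16.7%, against 16.6% of all genes), and 0 were below by that size (against 18.8%). With siTMPO-AS1 #2, 3 were above (25%, against 16.1%) and 1 below (8.33%, against 10.4%). The 12 genes, and the 5 others with 0 past 1.5-fold, are too few for a comparison with these shares. Between the siRNAs the median difference was -0.42 for the 12 and 0.030 for the 5.

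Of the members whose promoter holds the element printed above, 7 passed the filter, and 6 of them had the lower signal with siTMPO-AS1 #1: TARS1, GARS1, CARS1, IARS1, YARS2 and AARS1, by differences of -1.13, -0.72, -0.43, -0.41, -0.35 and -0.12. NARS1 went the other way, by 0.97. The 8 cytosolic genes with a promoter in the table and no match had a median difference of -0.050, and 4 of them lay lower with siTMPO-AS1 #1. These groups are not alike, since the 7 include the mitochondrial YARS2. LARS1, VARS1 and YARS1 had no promoter to search and are in neither group, with differences of 0.47, -0.92 and 0.21. Over all genes tested that have a promoter in the table, 286 held the letters, and 59.8% of them were lower with siTMPO-AS1 #1. Of the 9473 without the letters, 59% were lower. Whether the element has a part in the differences of the members was not tested.

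**Figure D4:**
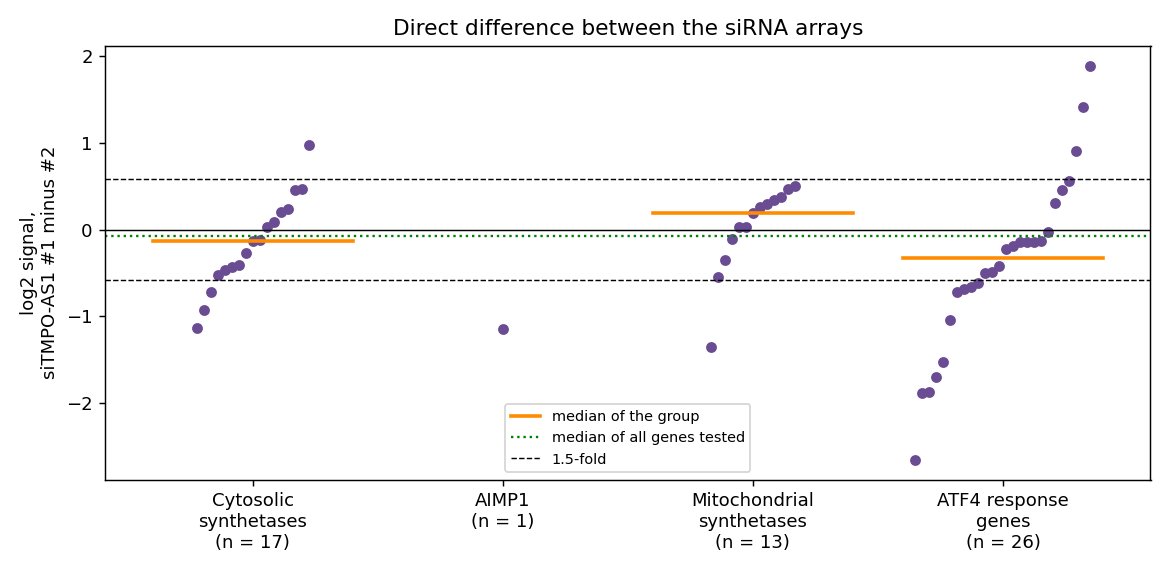
Log2 signal on the siTMPO-AS1 #1 array minus that on the siTMPO-AS1 #2 array (y axis) for 17 cytosolic synthetases, AIMP1, 13 mitochondrial synthetases and 26 ATF4 response genes (x axis, 1 point per gene), with group medians as orange lines, the median of all genes tested as a dotted line and 1.5-fold as dashed lines. The cytosolic median is -0.13, the mitochondrial median 0.19 and that of ATF4 response genes -0.32.

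Other genes of the ATF4 response lay on both sides of control. The list was chosen with earlier results of these data known, and 26 of its 28 genes passed the filter. Against control with siTMPO-AS1 #1, 2 were at least 1.5-fold above (7.69%, against 16.6% of all genes) and 8 at least 1.5-fold below (30.8%, against 18.8%). With siTMPO-AS1 #2, 9 were above (34.6%, against 16.1%) and 4 below (15.4%, against 10.4%). At least 1.5-fold above control with both siRNAs were 0, and 0 were below by that size with both, against 5.42% and 4.07% of all genes. SLC3A2, with log2 ratios of 0.580 and 1.08, fell just short of 1.5-fold (0.585) with siTMPO-AS1 #1. Above control with both by any amount were 8 of 26, and 7 were below with both. The count of 0 above holds for the list as chosen, which leaves out SLC7A5, described below. In opposite directions past 1.5-fold were 5 of 26, against 3.3% of all genes. The medians were -0.12 and 0.20. Directly between the siRNAs, 10 of 26 (38.5%) were at least 1.5-fold lower with siTMPO-AS1 #1 and 3 at least 1.5-fold higher, beside 22.7% and 14.9% of all genes.

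ATF4 had signals of 11.27 with siControl, 11.31 with siTMPO-AS1 #1 and 11.97 with siTMPO-AS1 #2, and only the siTMPO-AS1 #2 array stood apart. ASNS, the asparagine synthetase, a standard marker of the response, had 11.36, 10.91 and 12.44, and PSAT1, of serine synthesis, had 12.93, 11.85 and 13.55. Both had their lowest signal with siTMPO-AS1 #1 and their highest with siTMPO-AS1 #2. CHAC1, which degrades glutathione, had 6.53, 5.80 and 7.69, and TRIB3, a pseudokinase that restrains ATF4, had 6.28, 5.48 and 6.52. The stress transcription factor gene DDIT3 (CHOP) ran the other way, with 5.76, 6.09 and 4.68. SESN2, an inhibitor of mTOR signalling, had 5.28, 5.16 and 5.29, and PHGDH, the first enzyme of serine synthesis, was under the filter. SLC7A5, the transporter that brings several of these amino acids into cells, was not in the list of ATF4 response genes counted above. It had 9.98, 12.54 and 12.91, past 1.5-fold above control with both siRNAs. Its difference from control was far larger than that of any synthetase measured.

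Genes that handle tRNA around charging included 11 that passed the filter of 12 listed. With siTMPO-AS1 #1, 1 was at least 1.5-fold above control (9.09%, against 16.6% of all genes) and 2 below (18.2%, against 18.8%). With siTMPO-AS1 #2, 1 was above (9.09%, against 16.1%) and 0 below (against 10.4%). TRNT1, which adds the CCA end that every synthetase needs, had signals of 10.50, 8.45 and 10.36, so that only the siTMPO-AS1 #1 array stood apart. EIF2AK4, the gene of the uncharged-tRNA sensor GCN2, had 10.74, 9.96 and 10.38, below control on both siRNA arrays and past 1.5-fold on the first. XPOT, the exporter of tRNA from the nucleus, had log2 ratios of -0.56 and -0.15. GATB and QRSL1, of the complex that makes glutamine-tRNA in mitochondria, had 0.90 and 0.097 for GATB and 0.47 and -0.28 for QRSL1. MTFMT, which formylates the mitochondrial initiator tRNA, had 0.32 and 0.69, and SEPSECS, of selenocysteine synthesis on tRNA, had 0.078 and 0.11.

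Elongation factors bring charged tRNA to the ribosome and move the ribosome along. Of 8 genes listed for cytosolic elongation 4 passed the filter, with 0 past 1.5-fold with either siRNA. Of all genes, 16.6% were above and 18.8% below with siTMPO-AS1 #1, and 16.1% and 10.4% with siTMPO-AS1 #2. The 4 genes are too few for a comparison with these shares. EEF1A1, which carries the charged tRNA, had log2 ratios of 0.055 and -0.0078, and EEF1D, of its exchange factor, had 0.088 and 0.36. EIF5A, which helps stalled ribosomes, had 0.50 and 0.43, and the highest ratio was the 0.57 of EEF2K, a kinase that inhibits elongation, with siTMPO-AS1 #1. EEF1A1 had signals from 19.15 to 19.21, well above the limit of a 16-bit scan. Of 9 mitochondrial translation factors 7 passed, with 1 above and 1 below control by 1.5-fold with siTMPO-AS1 #1 (16.6% and 18.8% of all genes). With siTMPO-AS1 #2 there were 0 (16.1% and 10.4% of all genes). GFM1, a mitochondrial elongation factor, was the 1 above, with log2 ratios of 0.87 and 0.030, and TSFM had 0.047 and 0.32. Their medians, 0.047 and 0.030, lay below the 0.44 and 0.30 of the mitochondrial synthetases. That difference was not tested.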

How the data were processed

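The deposited log2 signals, 1 per probe set and array for 138745 probe sets, were made by the authors with Affymetrix Expression Console (RMA) per the submitters' processing notes. Their versions, annotation and build were not given in the sources used here. Labelling started from 150 ng of RNA per array. Array medians were 3.73, 3.75 and 3.75. On all arrays 1144 probe sets exceeded 16. Arrays have no read depth, and their number limits the precision.

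Platform annotation paired 36176 probe sets with 1 symbol, 1119 with several and 101450 with none. The brightest probe set stood for a gene, older symbols without the final 1 were merged, and 16808 genes at or above the median gene mean were tested. limma 3.58.1 (R 4.3.3; lmFit, eBayes, two-sided, Benjamini-Hochberg) compared both siTMPO-AS1 arrays with the control array, with 1 residual degree of freedom, 3.28 prior degrees of freedom and a prior SD of 0.41. The script was tested on simulated data. Each siRNA alone is a value with no test, read by a rule of 1.5-fold.

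Named genes are all measured members, TMPO-AS1, TMPO, SLC7A5 and a fixed subset of each pathway list. EEF1B2, EEF1G, EEF2 and TUFM of that subset have no probe set of their own here. EEF2K, EIF5A and the cell type markers given with values were named after their values were seen. Members, lists and promoter motifs were chosen with earlier results of these data known.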

Additional observations from a re-analysis of the deposited data

Results flagged for a closer look

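The probe set annotated with both TARS2, a mitochondrial threonine enzyme, and MIR6878, a microRNA gene, was not used in the comparisons, since its signal cannot be assigned to 1 gene. It had log2 signals of 6.80 with siControl, 8.57 with siTMPO-AS1 #1 and 8.02 with siTMPO-AS1 #2. It drew attention because both siRNA arrays stood above the control array, with log2 ratios of 1.77 and 1.22, more than for any of the 31 genes compared. The probe sets shared by QARS1 and MIR6890 (10.85, 10.93 and 10.99) and by MARS1 and MIR6758 (10.85, 10.70 and 11.09) lay within 1.5-fold of control.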

How the results depend on the processing

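No paired analysis was possible because there was 1 control array. limma called 0 of the genes under each alternative run: the mean of all probe sets, no filter or a stricter filter on dim genes (75th percentile, a log2 signal of 7.79), arrays centred on their medians, repeated quantile normalization, an intensity trend, and probe sets shared with a second symbol counted for the listed gene, which was added after seeing the data. The count at least 1.5-fold higher with both siRNAs, 2 genes, became 1 under the stricter filter, which removed NARS2, and 0 at a 2-fold threshold, and 3 with the shared probe sets. With 1 siRNA left out at a time, 6 to 7 genes were higher and 1 to 2 lower, in place of 2 and 0. The median of the mean log2 ratios of mitochondrial synthetases was 0.31 and ran from 0.30 to 0.44 with 1 siRNA left out. It was 0.54 under the stricter filter, where fewer genes remained and SARS2, PARS2 and MARS2, below control with both siRNAs, were gone. That of cytosolic synthetases was 0.18, and ran from -0.00086 to 0.26 with 1 siRNA left out, so its size rests on siTMPO-AS1 #2. The other alternatives moved these medians by less than the SD between the siRNAs. Effects within the spread between 2 different siRNAs could not be resolved with 3 arrays.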
